A study of Mus musculus with 22 samples.

Results

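The genes described here are the 10 MHC class II presentation genes of the mouse, taken by symbol from a distal colon count table of 46078 genes: Ciita, Cd74, H2-Aa, H2-Ab1, H2-Eb1, H2-DMa, H2-DMb1, H2-DMb2, H2-Oa and H2-Ob. All 10 were found, and all 10 passed the filter on low counts in every comparison. RNA was measured in the distal colon of 22 mice. Winnie mice carry a missense mutation of Muc2, the secreted mucin of goblet cells, and develop colitis without any treatment. The groups were 8 C57BL/6 mice aged 14 weeks (4 males and 4 females), which the study describes as littermates, 7 Winnie mice aged 14 weeks (3 males and 4 females) and 7 Winnie mice with prolapse aged 18 weeks (4 males and 3 females), called Winnie-Prolapse below. There was no C57BL/6 group aged 18 weeks, so age and prolapse cannot be told apart.

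MHC class II molecules show peptides from engulfed protein to CD4+ T cells. Dendritic cells, macrophages and B cells carry them at rest, and interferon gamma can induce them in other cells, gut epithelium among them. An alpha and a beta chain (H2-Aa with H2-Ab1) assemble on the invariant chain, Cd74, which blocks the groove and guides the complex to endosomes. There the DM heterodimer (H2-DMa with H2-DMb1 or H2-DMb2) exchanges the remnant of Cd74 for peptide, and the DO heterodimer (H2-Oa with H2-Ob), best known from B cells, holds DM back. Ciita is the coactivator on which the chains H2-Aa and H2-Ab1 depend. It binds no DNA itself and is recruited by proteins seated on the X and Y boxes of class II promoters. C57BL/6 mice have no working H2-Ea chain, so the H2-Eb1 chain lacks its partner.

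Promoters are shown first because genes with like promoter letters had unlike RNA changes. RefSeq windows of 300 bases (250 before and 50 after the start, build GRCm38.p6) were searched on both strands for 2 motifs, the letters AACNNATG of an X box core and GATTGG of a Y box, which do not overlap. Ciita, Cd74 and H2-Ab1 had no entry. The letters were chosen after member windows had been read. Of 32817 windows, 8.86% held AACNNATG and 16.1% held GATTGG, and 24 windows (0.0731%) held both on 1 strand with starts 20 to 40 bases apart. Among these 24 were H2-Eb1, H2-DMb1, H2-DMb2 and H2-Ob, and also H2-Eb2, a class II gene outside the 10. The windows of H2-Aa and H2-Oa held GATTGG alone, at -49 and -44 from the start. Of the 2 H2-DMa windows neither held AACNNATG. Capitals below mark the matches, and every gene lies on the plus strand.
H2-Eb1, chr17:34305737-34305866: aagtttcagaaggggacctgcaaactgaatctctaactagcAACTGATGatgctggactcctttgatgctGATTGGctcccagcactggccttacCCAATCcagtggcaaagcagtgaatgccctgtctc
H2-DMb2, chr17:34145119-34145235: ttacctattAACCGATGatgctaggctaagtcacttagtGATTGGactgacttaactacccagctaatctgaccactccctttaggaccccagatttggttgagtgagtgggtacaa
H2-Ob, chr17:34238775-34238902: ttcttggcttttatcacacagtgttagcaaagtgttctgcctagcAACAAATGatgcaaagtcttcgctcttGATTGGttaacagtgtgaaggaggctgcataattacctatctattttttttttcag
H2-DMb1, chr17:34153099-34153128: AACTGATGatgctaggctgattcactcagt
The stretches of H2-Eb1, H2-DMb2 and H2-Ob end before a GENCODE M21 exon, that of H2-DMb2 lying in an intron of an annotated transcript. The 30 bases of H2-DMb1 lie upstream of the RefSeq start but inside the first exon that GENCODE M21 gives, in its 5′ UTR, so no more are shown. GATTGG follows directly after them. From the X core to the end of the Y box, H2-DMb1 and H2-DMb2 had the same base at 32 of 36 positions. CCAATC in the H2-Eb1 stretch is GATTGG on the other strand. A match is a description of letters and does not show that a factor was bound.

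Libraries held 24817527 to 36344372 counts, and values are given as CPM, the count divided by the library total and multiplied by 1000000. A count of 3 corresponds to 0.0825 to 0.121 CPM, which covers counting error only, and every value of a member was above it. Winnie-Prolapse replicate 6 had 18.98% of its counts in 8 milk protein genes. As CPM divides by the library total, this lowers the CPM of all other genes in that library. The same library held the lowest Winnie-Prolapse values of H2-Aa, 584 CPM, and H2-DMb1, 76.4 CPM. The epithelial markers (6 genes, Epcam and Cdh1 among them) summed to 5893 to 10580 CPM over all libraries, with none of the 6 at 0. A gene was called when its edgeR adjusted p was under 0.001 and its change was at least 1.5-fold. Nothing in the labels says how many litters the mice came from, so p-values measure the spread between these mice.

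Per kilobase of exon, the order of the levels in C57BL/6 colon was led by Cd74 at 118 ± 66.0 CPM per kb (mean ± SD, n = 8). The chains followed, H2-Ab1 at 35.1 ± 15.9, H2-Aa at 33.0 ± 15.7 and H2-Eb1 at 27.9 ± 13.4 CPM per kb. These 3 lay within each other's spread. The DM and DO genes were lower, H2-DMb2 at 4.89 ± 4.54, H2-DMb1 at 4.09 ± 1.66, H2-DMa at 2.81 ± 1.18, H2-Oa at 2.20 ± 1.96 and H2-Ob at 2.07 ± 2.05 CPM per kb, and neighbours in that order were not separated by their SD either. Ciita was lowest at 0.737 ± 0.711 CPM per kb. In Winnie-Prolapse colon, H2-DMb1 stood at 58.8 ± 12.0 and H2-DMb2 at 4.83 ± 3.24 CPM per kb (n = 7 each), so these neighbouring genes were no longer alike. C57BL/6 replicate 5 was the highest and replicate 7 the lowest control for all 10 genes.

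Values across the groups follow by role. Ciita (16:10480059-10528418, GENCODE M21, GRCm38) ranged from 1.27 to 22.2 CPM in C57BL/6, with a median of 4.33. It ranged from 7.97 to 65.4 CPM in Winnie, with a median of 38.2, and from 31.4 to 87.5 CPM in Winnie-Prolapse, with a median of 51.9. All 7 Winnie-Prolapse libraries lay above every control, while 4 of 7 Winnie libraries did. Cd74 (18:60803848-60812652) had medians of 180 CPM in C57BL/6 (57.8 to 421), 1811 CPM in Winnie (264 to 3211) and 2606 CPM in Winnie-Prolapse (1523 to 3030). The Winnie range spanned 12.2-fold and the Winnie-Prolapse range 1.99-fold. Cd74 alone made up a median of 38.1% of the counts of the 10 genes in C57BL/6 libraries and 52.3% in Winnie-Prolapse libraries.

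The classical alpha chain H2-Aa (17:34282744-34287823) had medians of 115 CPM in C57BL/6 (43.5 to 249), 810 CPM in Winnie (136 to 1428) and 856 CPM in Winnie-Prolapse (584 to 1336). Its partner H2-Ab1 (17:34257689-34269419) had medians of 84.5 CPM (34.5 to 174), 545 CPM (116 to 993) and 738 CPM (465.9 to 918) in the same order. H2-Eb1 (17:34305867-34316674) had medians of 49.5 CPM (21.3 to 110), 198 CPM (60.9 to 406) and 290 CPM (197 to 407). For all 3 chains the Winnie-Prolapse libraries did not overlap with the controls, and the Winnie libraries did. An antisense gene overlaps H2-Eb1, and the strand setting of the counting is not given in the sources used here.

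The DM genes behaved in different ways. H2-DMa (17:34119541-34139101) had medians of 9.36 CPM in C57BL/6 (4.42 to 18.1), 62.2 CPM in Winnie (10.99 to 145) and 102 CPM in Winnie-Prolapse (58.3 to 117). H2-DMb1 (17:34153072-34160230) had medians of 6.27 CPM (3.51 to 13.0), 71.4 CPM (8.17 to 137) and 93.9 CPM (76.4 to 127). Its neighbour H2-DMb2 (17:34143307-34151555) had medians of 6.25 CPM (1.20 to 25.8), 10.01 CPM (2.51 to 11.2) and 6.54 CPM (3.59 to 16.8), and its 3 ranges overlapped. Of the 100-base stretches of the annotated transcripts of H2-DMb1, 11.3% also occurred in H2-DMb2, and 10.3% of those of H2-DMb2 in H2-DMb1, so part of their reads could have been shared. None of the stretches of the other 8 members occurred in another gene.

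Per kilobase, the DO genes had the lowest mean levels in Winnie and Winnie-Prolapse, and Ciita in C57BL/6. H2-Oa (17:34092340-34095234) had medians of 2.31 CPM in C57BL/6 (0.254 to 9.14), 3.48 CPM in Winnie (0.810 to 4.51) and 2.15 CPM in Winnie-Prolapse (1.26 to 6.89). H2-Ob (17:34238903-34254414) had medians of 8.13 CPM (0.978 to 35.5), 11.4 CPM (2.35 to 14.0) and 6.48 CPM (3.62 to 24.3). The groups overlapped throughout for both genes, and the widest range of either gene was in C57BL/6.

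**Figure D1:**
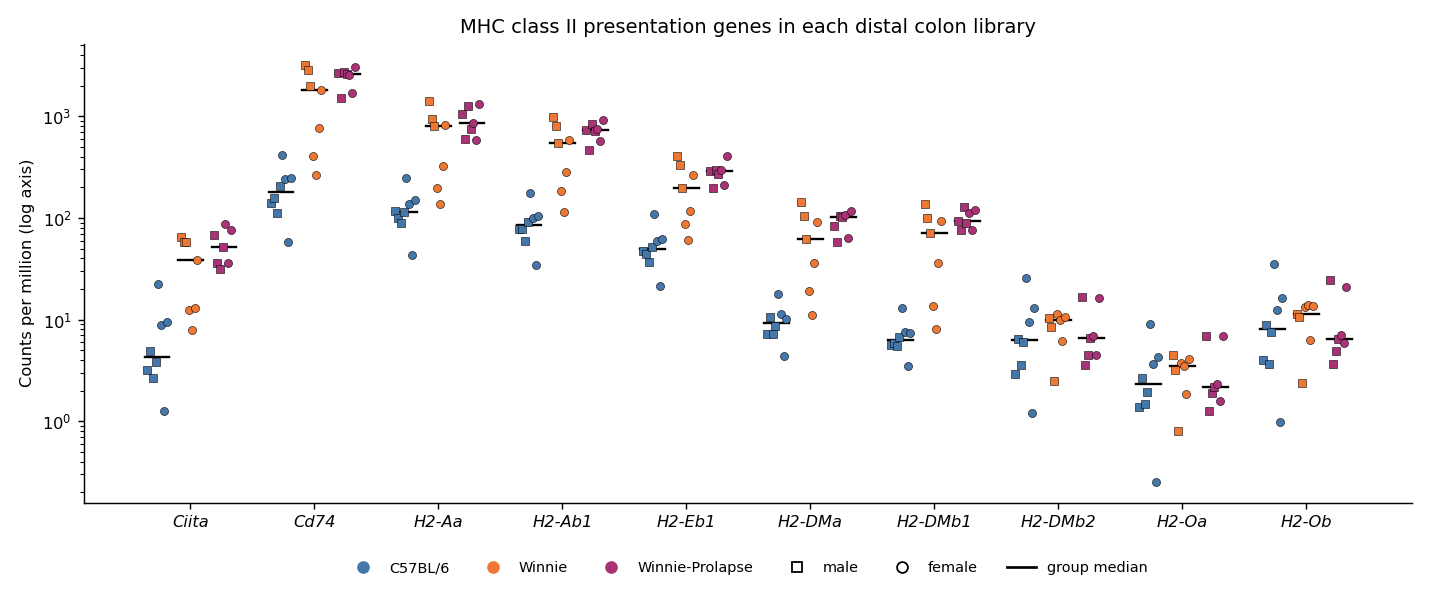
CPM (log axis) of the 10 genes in each of the 22 libraries, by group; squares are males, circles females and bars group medians. For Ciita, Cd74, H2-Aa, H2-Ab1, H2-Eb1, H2-DMa and H2-DMb1 the 7 Winnie-Prolapse libraries lie above all 8 controls and the Winnie libraries spread over both, while H2-DMb2, H2-Oa and H2-Ob overlap in all groups.

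The comparison of Winnie-Prolapse with C57BL/6 asked how the colon with prolapse differed from the healthy one. In edgeR, 7 of the 10 genes rose and none fell, where 9.84% of the 17397 genes tested were called higher. The rise was 15.4-fold for H2-DMb1 (log2 fold change 3.95 ± 0.23 SE, edgeR adjusted p = 1.05e-08), 13.0-fold for Cd74 (3.70 ± 0.34, edgeR adjusted p = 8.59e-07) and 10.02-fold for H2-DMa (3.33 ± 0.25, edgeR adjusted p = 1.49e-07). H2-Ab1 rose by 3.09 ± 0.27 and H2-Aa by 2.98 ± 0.31 on the log2 scale, with edgeR adjusted p-values of 5.92e-07 and 2.77e-06. Ciita rose by 3.06 ± 0.49 (edgeR adjusted p = 0.000113) and H2-Eb1 by 2.47 ± 0.27 (edgeR adjusted p = 4.16e-06). At an adjusted p under 0.05 the same 7 passed, as did 16.7% of genes upward. All 7 had no overlap in CPM with the controls, against 6.5% of genes tested that did not overlap and were higher. The log2 fold change was 0.08 ± 0.54 for H2-DMb2, 0.19 ± 0.56 for H2-Oa and 0.02 ± 0.60 for H2-Ob, with edgeR adjusted p-values of 0.906, 0.794 and 0.981. Their SE is wide enough that a change of 1.5-fold either way could have been missed. The median log2 fold change of the 10 genes was 3.02, beside -0.01 over all genes tested. Among females alone, where 1.28% of genes were called higher, H2-DMb1 was the 1 member called, at 3.85 ± 0.39 (edgeR adjusted p = 0.000894), and the other 6 had adjusted p-values of 0.00217 to 0.0248.

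The comparison of Winnie with C57BL/6 at 14 weeks asked the same of mice of the control age. It used the same 8 controls, so it is not independent of the one above. At the limits of the study no member was called in edgeR, where 0.0868% of 17289 genes tested were called higher. The same 7 genes were higher at an adjusted p under 0.05, a limit passed upward by 7.42% of genes, and 7 of 10 had an unadjusted p under 0.05, as did 39.9% of all genes. Their log2 fold changes were 3.34 ± 0.50 for H2-DMb1 (edgeR adjusted p = 0.00132), 3.11 ± 0.52 for Cd74 (edgeR adjusted p = 0.00209) and 2.87 ± 0.46 for H2-DMa (edgeR adjusted p = 0.00186). Those of the chains were 2.56 ± 0.42 for H2-Ab1, 2.49 ± 0.46 for H2-Aa and 2.03 ± 0.39 for H2-Eb1, with edgeR adjusted p-values of 0.00194, 0.00339 and 0.00415. Ciita stood at 2.44 ± 0.58 (edgeR adjusted p = 0.00971). H2-DMb2, H2-Oa and H2-Ob had log2 fold changes of 0.09 ± 0.50, 0.10 ± 0.51 and -0.02 ± 0.55, with edgeR adjusted p-values of 0.906, 0.900 and 0.981. Lists described below also moved at an adjusted p under 0.05. Higher were 5 of 9 macrophage, 4 of 6 plasma cell, 3 of 9 dendritic cell and 1 of 6 epithelial markers. All 5 T cell genes and 8 of 9 class I counterparts were higher too. So were 2 of the 6 interferon gamma signalling genes tested and 2 of 6 costimulation genes. Lower were all 5 smooth muscle markers, 1 macrophage marker and 1 dendritic cell marker, where 1475 of the 17289 genes tested were lower. No B cell, colonocyte or goblet cell marker passed.

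The Winnie libraries were unlike each other. For each of the 7 higher genes, females 4, 5 and 6 had the 3 lowest Winnie values, and the 3 males and female 7 had the 4 highest. Cd74 read 3211, 2861 and 1976 CPM in males 1 to 3, 405, 264 and 776 CPM in females 4 to 6 and 1811 CPM in female 7. Between 4 and 6 of the 7 Winnie libraries lay above every control for each of these genes, and for no member did the ranges separate, as 0.463% of genes did upward. Females 4 to 6 also stood apart in other sums. Their colonocyte and goblet cell markers summed to 23633, 13708 and 22842 CPM, against 5999 to 10660 CPM in the other Winnie libraries. Their class I counterparts summed to 2783, 2108 and 3742 CPM, against 3917 to 6751 CPM. B cell marker sums did not split in this way, at 88.6, 91.5 and 39.1 CPM against 13.7 to 87.1 CPM. DESeq2 called 7 members, where it called 2.66% of all genes higher, and limma-voom called 0, where it called 0% of all genes. All 3 groups in one edgeR fit gave 6 members (0.979% of genes higher) and no filter on low counts gave 1 (0.219%). Without Winnie replicate 5, 6 members were called (Ciita, at an edgeR adjusted p of 0.00293, was not), but the calls over the whole table also went from 15 to 436 higher genes, or 2.5%. Without Winnie replicate 4, H2-DMb1 was the 1 member called, beside 0.149% of genes. Without C57BL/6 replicate 5, the highest control, 0 members were called (0.0349% of genes higher), and 7 were in Winnie-Prolapse against C57BL/6 (9.31%).

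**Figure D2:**
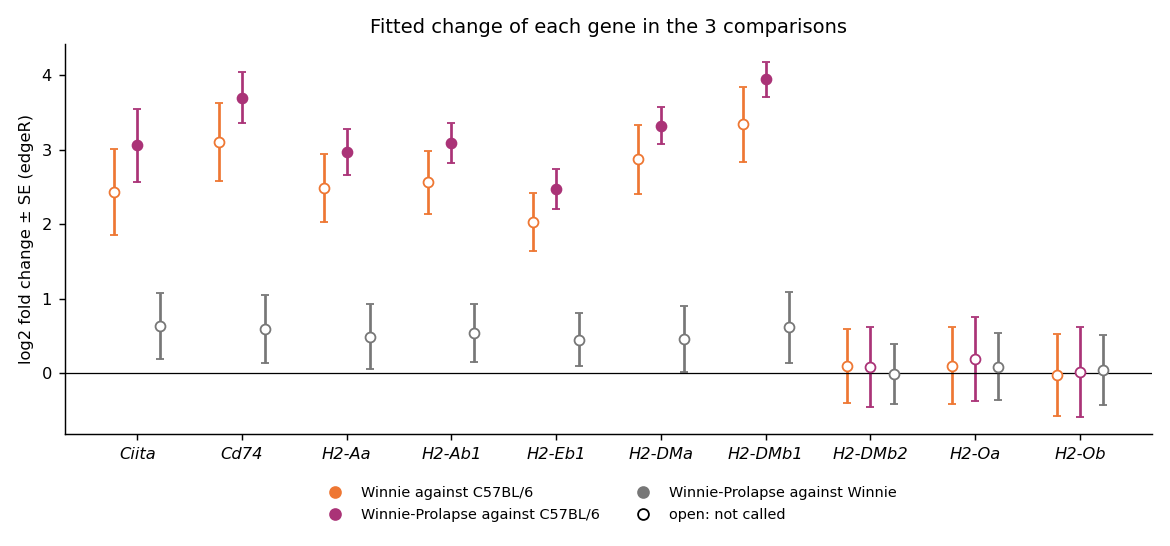
Log2 fold change ± SE of each gene in the 3 comparisons (edgeR); filled points passed an adjusted p of 0.001 and a 1.5-fold change. The 7 filled points are those of Winnie-Prolapse against C57BL/6, from 2.47 for H2-Eb1 to 3.95 for H2-DMb1, and H2-DMb2, H2-Oa and H2-Ob lie near 0 in all 3 comparisons.

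The comparison of Winnie-Prolapse with Winnie set mice of 18 weeks with prolapse against mice of 14 weeks without it. No member was called in edgeR (DESeq2 and limma-voom also called 0 members, and 1.71% and 0% of all genes higher), where 0% of 17041 genes tested were called. None passed an adjusted p of 0.05, as 4.27% of genes did upward, and none had an unadjusted p under 0.05, as 27.8% of genes did. The 7 genes had log2 fold changes between 0.45 ± 0.36 for H2-Eb1 and 0.63 ± 0.44 for Ciita, with edgeR adjusted p-values of 0.363 to 0.530. Among males alone these 7 values were below 0, from -0.36 for Ciita to -0.06 for H2-DMb1. Among females alone 4 members had an unadjusted edgeR p under 0.05, as did 6024 of 17383 genes, and none was called. Mean Cd74 was 814 CPM in Winnie females and 2421 CPM in Winnie-Prolapse females. In males the means were 2683 and 2378 CPM. The Winnie-Prolapse and Winnie ranges overlapped for all 10 genes, while 0.411% of genes were higher without overlap.

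Sex was examined because the low Winnie libraries were female. The sample titles number the Winnie females consecutively and the Winnie males apart from them. Sex and anything else that this numbering may mark cannot be told apart in that group. The p-values by sex that use the Winnie libraries describe what was already seen and are no separate test of it. Within males, Winnie against C57BL/6 gave log2 fold changes of 4.09 ± 0.19 for Ciita and 4.17 ± 0.25 for Cd74, and all 7 genes were called, where 0.637% of genes were called higher. Within females the values were 0.92 ± 0.75 for Ciita and 1.89 ± 0.71 for Cd74, with edgeR adjusted p-values of 0.19 to 0.544 for the 7. No member was called in females (5 had an unadjusted p under 0.05, as did 19.2% of all genes), but neither was any other of the 17260 genes tested (0%). The difference between the sexes, tested as an interaction, was called for no member at an adjusted p under 0.05, where 0.272% of genes were called. Ciita had the widest difference, 3.17 ± 0.89 on the log2 scale (unadjusted p = 0.00293, edgeR adjusted p = 0.101). The other 6 lay between 1.62 and 2.27, and 5 of the 7 had an unadjusted p under 0.05, as did 18.5% of all genes. In Winnie-Prolapse against C57BL/6 the interaction was between 0.17 and 0.93 for the 7 class II genes, and no member was called or had an unadjusted p under 0.05 (4.34% of genes did). In Winnie-Prolapse against Winnie no member was called either, and 4 of the 7 had an unadjusted p under 0.05, as did 12.9% of genes.

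Ratios of counts between 2 genes of a library do not depend on its depth, and 5 were compared on the log2 scale with exact permutation tests (two-sided), adjusted over 15 tests. The ratio of H2-DMb2 to H2-DMb1 was 1.004 at the median in C57BL/6 (0.344 to 1.98), 0.115 in Winnie (0.0354 to 1.22) and 0.0631 in Winnie-Prolapse (0.0351 to 0.179). Controls and Winnie-Prolapse did not overlap, a log2 difference of -3.65 (exact permutation p = 0.000155, the smallest the test can give; adjusted p = 0.000583). In Winnie the difference was -2.42 (exact permutation p = 0.00839, adjusted p = 0.0157), and females 4 and 5, at 0.820 and 1.22, lay among the controls. H2-Ob to H2-DMb1 differed by -2.48 in Winnie and -3.72 in Winnie-Prolapse, and H2-Oa to H2-DMa, the alpha chains of DO and DM, by -2.07 and -2.97 (adjusted exact permutation p-values of 0.000932 to 0.0173). The ratios of this paragraph each set a gene with little fitted change over one that was higher in the same libraries. They restate the fits above and are no separate support.

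Smaller shifts were seen among the genes that moved together. H2-Eb1 to H2-Ab1 had medians of 0.598 in C57BL/6 (0.566 to 0.633), 0.409 in Winnie (0.363 to 0.527) and 0.393 in Winnie-Prolapse (0.351 to 0.444). Both Winnie groups lay wholly below the controls, by -0.48 and -0.61 on the log2 scale (adjusted exact permutation p = 0.000583 for each). Cd74 to H2-Ab1 moved the other way, from a median of 2.13 in C57BL/6 to 3.09 in Winnie and 3.30 in Winnie-Prolapse, log2 differences of 0.48 and 0.68 (adjusted exact permutation p = 0.00866 and 0.000583). Between Winnie-Prolapse and Winnie no ratio passed the 0.05 limit (adjusted exact permutation p-values of 0.151 to 0.221). Without Winnie replicate 3, H2-Eb1 to H2-Ab1 did pass it there, at -0.18 (adjusted exact permutation p = 0.0453).

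**Figure D3:**
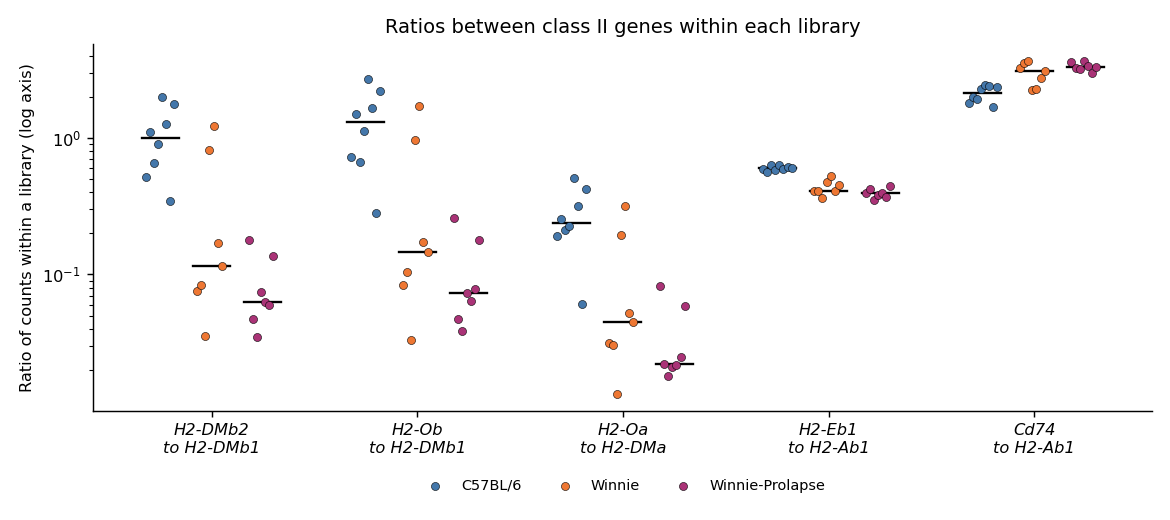
Ratio of the counts of 2 genes within each library (log axis) for 5 pairs, by group, with bars at the medians; counts are not scaled to gene length. The H2-DMb2 to H2-DMb1 ratio falls from a median of 1.004 in C57BL/6 to 0.0631 in Winnie-Prolapse, and the H2-Eb1 to H2-Ab1 ratio of both Winnie groups lies below all controls.

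The members fell into 2 sets in how they varied between libraries of a group, a split made after the values were seen. Log2 CPM deviations from the group means over 22 libraries gave Pearson r between 0.805 and 0.991 among Ciita, Cd74, the 3 chains, H2-DMa and H2-DMb1 (0.937 to 0.991 without Ciita). Among H2-DMb2, H2-Oa and H2-Ob r was 0.983 to 0.992, and between the sets 0.189 to 0.578. These points share libraries and depth, and the values are a description. Of the 13590 genes compared outside the 10 members, those most like Cd74 were H2-Q6, H2-Q5, Sp110, Ubd and H2-Q7 (r of 0.899 to 0.932), of which the H2-Q genes are class I genes. Outside the members, Ciita was most like H2-Q5 (0.963), H2-Q6, H2-Q7, Sp140 and Sp110 (0.870 for the last). H2-Q genes have near copies of each other, so their counts are uncertain. H2-Ob, added after its values were seen, had Ms4a1, Tnfrsf13c, Bank1 and Cxcr5 among the other genes most like it (0.986 to 0.989), all known from B cells.

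**Figure D4:**
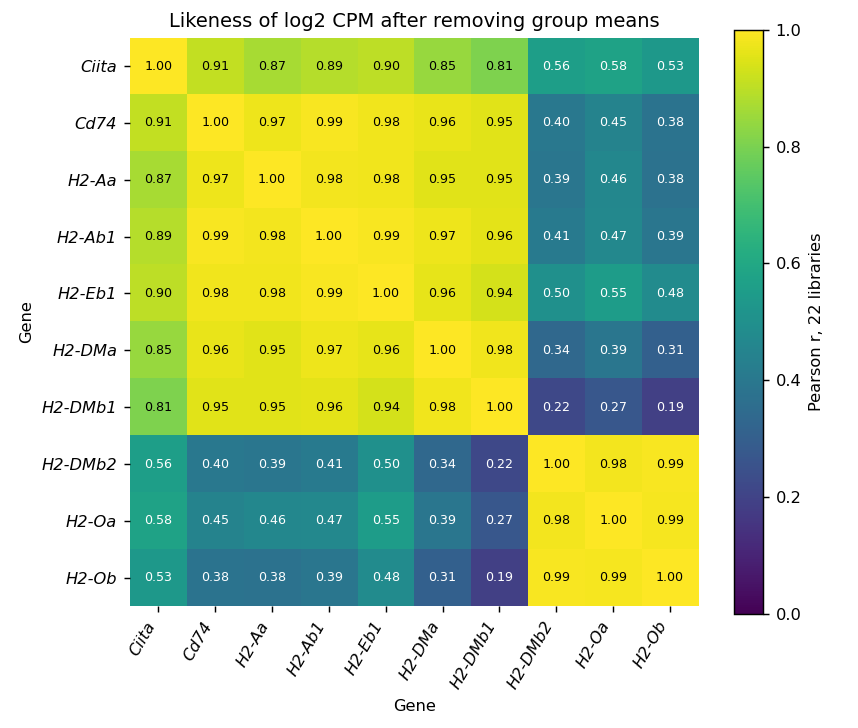
Pearson r of log2 CPM between each pair of the 10 genes over 22 libraries, after the group means were removed. The upper left block of 7 genes runs from 0.805 to 0.991, the lower right block of H2-DMb2, H2-Oa and H2-Ob from 0.983 to 0.992, and the values between the blocks from 0.189 to 0.578.

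Bulk RNA cannot tell fewer cells of a type from less RNA per cell, so marker levels are given beside the genes. The 7 B cell markers (Ms4a1, Cd79a, Pax5 and others) summed to 3.37 to 239 CPM in C57BL/6, 13.7 to 91.5 CPM in Winnie and 26.1 to 147 CPM in Winnie-Prolapse, with medians of 52.6, 83.6 and 59.1 CPM. None of the 7 was called in any comparison or at 0 in a whole group, and none had an unadjusted p under 0.05 in edgeR. H2-Ob followed this sum within each group, with r of 0.992 in C57BL/6 (exact permutation p = 4.96e-05), 0.998 in Winnie (exact permutation p = 0.000397) and 0.968 in Winnie-Prolapse (exact permutation p = 0.000595). Spearman's rho was 0.976, 0.964 and 0.964 (exact permutation p = 0.000397, 0.00278 and 0.00278), the p-values of r adjusted over 60 such tests were 0.000992, 0.00340 and 0.00357, and r without the 2 farthest libraries was 0.994, 0.907 and 0.890. H2-DMb2 and H2-Oa had r of 0.969 to 0.996, but in Winnie H2-Oa fell to 0.448 without the 2 farthest libraries.

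Cd74 followed the B cell sum in C57BL/6 (r = 0.974, exact permutation p = 0.000174, adjusted 0.00260; rho = 0.952, exact permutation p = 0.00114; r = 0.903 without the 2 farthest). In Winnie its r was -0.244 (exact permutation p = 0.666, adjusted 0.756; rho = -0.571, exact permutation p = 0.200; r = -0.686 without the 2 farthest). In Winnie-Prolapse r was 0.720 (exact permutation p = 0.0706, adjusted 0.128; rho = 0.571, exact permutation p = 0.200; r = 0.683 without the 2 farthest). Winnie replicate 3 shows the contrast, with the lowest B cell sum of its group, 13.7 CPM, beside 1976 CPM of Cd74. Winnie replicate 5 had the highest sum, 91.5 CPM, beside 264 CPM of Cd74. The difference between the groups in r was not tested.

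The sum of 9 macrophage markers was set beside the genes in the same 60 tests. In C57BL/6 all 10 genes had r of 0.840 to 0.918 with it (exact permutation p-values of 0.00372 to 0.0104, adjusted 0.0140 to 0.0232), with rho of 0.619 to 0.738 (exact permutation p-values of 0.0458 to 0.115). Without the 2 farthest libraries r was 0.220 to 0.589, so the relation rested on those libraries. In Winnie the 7 higher genes had r of 0.408 to 0.521 (exact permutation p-values of 0.231 to 0.345, adjusted 0.322 to 0.422), with rho of 0.643 to 0.679 (exact permutation p-values of 0.110 to 0.139) and r of 0.202 to 0.523 without the 2 farthest libraries. In Winnie-Prolapse H2-Ab1, H2-Eb1 and H2-DMa had r of 0.838, 0.868 and 0.784 (exact permutation p = 0.0177, 0.0192 and 0.00952, adjusted 0.0378, 0.0398 and 0.0228), with rho of 0.607, 0.714 and 0.821 (exact permutation p = 0.167, 0.0881 and 0.0341). These 3 values of r also rested on the 2 farthest libraries, being 0.0942, 0.235 and 0.419 without them. The other 4 of the 7 had adjusted p-values of 0.0540 to 0.199, and H2-DMb2, H2-Oa and H2-Ob of 0.180 to 0.190 there and 0.756 to 0.947 in Winnie (exact permutation tests). For these 3 in Winnie, r was 0.136, 0.185 and 0.0265 with all 7 libraries and 0.792, 0.867 and 0.764 without the 2 farthest, so the 2 farthest libraries decided it. In Winnie-Prolapse it was 0.633 to 0.655 with all libraries and -0.307 to -0.185 without them.

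**Figure D5:**
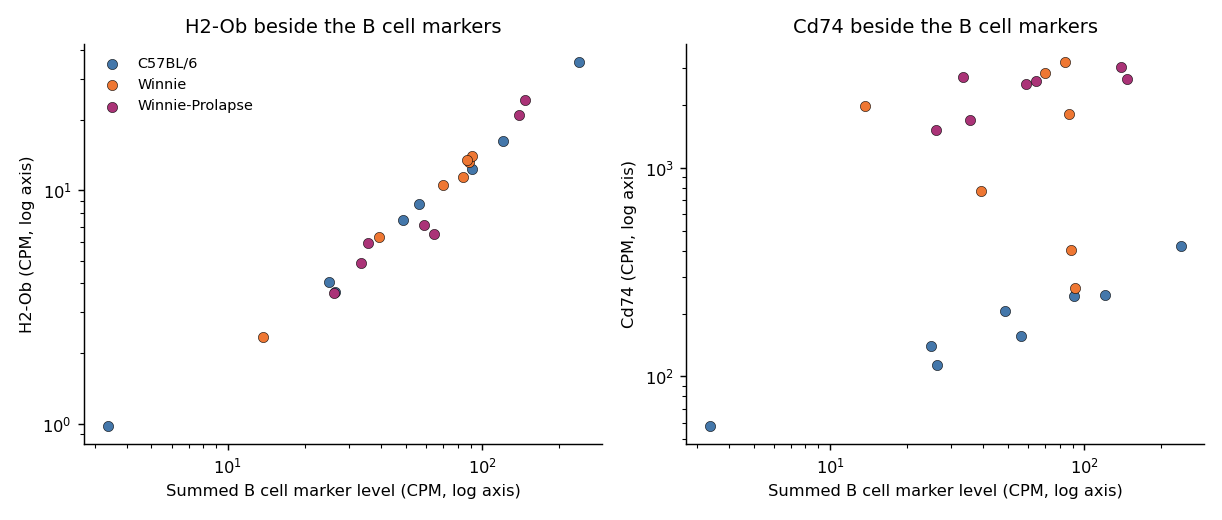
H2-Ob (left) and Cd74 (right) against the summed level of 7 B cell markers in each library, CPM on log axes, coloured by group. H2-Ob lies along 1 line in all groups (r of 0.968 to 0.998 within groups), whereas Cd74 of Winnie-Prolapse lies at 1523 to 3030 CPM, above all controls, whether the B cell sum is low or high.

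Other cells that carry class II were also measured. Ptprc, a marker of all leukocytes, had medians of 14.0 CPM in C57BL/6, 32.2 CPM in Winnie and 61.4 CPM in Winnie-Prolapse. In Winnie-Prolapse against C57BL/6 it stood at 1.48 on the log2 scale and was not called. It passed an adjusted p of 0.05 upward there, as did 16.7% of genes. The 9 macrophage markers summed to 173 to 366 CPM in C57BL/6, 247 to 472 CPM in Winnie and 286 to 803 CPM in Winnie-Prolapse. In Winnie-Prolapse against C57BL/6, 6 of them rose, Csf1r, Adgre1, Cd68, C1qa, C1qb and C1qc (log2 fold changes of 1.09 to 1.46), and Mertk fell. The 9 dendritic cell markers summed to 7.17 to 32.4, 17.3 to 40.01 and 21.8 to 49.1 CPM in the 3 groups, and Batf3 was the 1 called (1.26 ± 0.24, edgeR adjusted p = 0.000525). At an adjusted p under 0.05, 6 of the 9 were higher and 1 was lower, where 16.7% of all genes were higher. The 6 epithelial markers had 0 calls in that comparison, 2 having an unadjusted p under 0.05, beside 58.5% of all genes. Other tissue markers moved in it. Of 6 plasma cell markers, 5 rose (Jchain, the joining chain of secreted antibodies, by 2.82 ± 0.33), and their sum was 418 to 797 CPM in C57BL/6, 687 to 1799 CPM in Winnie and 1406 to 2092 CPM in Winnie-Prolapse. All 5 smooth muscle markers fell (Myh11, smooth muscle myosin, stood at -1.98 ± 0.25), where 1474 of the 17397 genes tested were called lower. The sums of the 5 were 5183 to 9894, 1419 to 6004 and 1065 to 2550 CPM in the same order. All 5 also had an unadjusted edgeR p under 0.05, as did 58.5% of all genes in either direction. Of 7 colonocyte and goblet cell markers, 2 fell, Car1 and Slc26a3 (-2.98 ± 0.40 and -2.55 ± 0.51), and the sums were 14610 to 18320, 5999 to 23633 and 2738 to 11921 CPM. At an adjusted p under 0.05, 5 of the 7 were lower, as were 3079 of 17397 genes, and the list median was -2.04 on the log2 scale. Unadjusted, 6 of the 7 had an edgeR p under 0.05, beside 58.5% of all genes. No marker of these lists was at 0 in a whole group. The part of these cells in the rise of the 7 class II genes was not tested. In Winnie-Prolapse against C57BL/6 the macrophage list had a median log2 fold change of 1.16, the dendritic cell list 1.16 and the class II genes 3.02.

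The rest of the pathway was read from lists. Of the 7 genes of the promoter complex, which seats Ciita, 0 were called in Winnie-Prolapse against C57BL/6 (2 with an unadjusted p under 0.05, as had 58.5% of all genes), with Rfx5 at 0.51 ± 0.13 and Rfxank at -0.71 ± 0.15 on the log2 scale (edgeR adjusted p = 0.00350 and 0.00105). Of 7 interferon gamma signalling genes, 3 rose in that comparison. Irf1, a transcription factor that the pathway induces, rose by 1.38 ± 0.13 and Socs1, a feedback inhibitor of it, by 4.40 ± 0.27 on the log2 scale (edgeR adjusted p = 1.44e-06 and 1.22e-08). Ifng itself had 0 to 1 count in the C57BL/6 libraries, 1 to 63 in Winnie and 47 to 312 in Winnie-Prolapse, and was the third. Its receptor gene Ifngr1 stood at -0.44 ± 0.14 (edgeR adjusted p = 0.0125). In Winnie against C57BL/6 0 of the 6 tested were called and 3 had an unadjusted p under 0.05, as had 39.9% of all genes. At an adjusted p under 0.05, 2 of the 6 were higher there, as were 7.42% of genes.

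Downstream of the class II genes, a list of 8 endosomal genes (6 proteases, the reductase Ifi30 and the protease inhibitor Cst3) had 1 that rose in Winnie-Prolapse against C57BL/6, Lgmn, a lysosomal endopeptidase (0.78 ± 0.11, edgeR adjusted p = 2.82e-05). Ctsb and Ctss, which had the highest mean CPM of them over all 22 libraries, stood at 0.36 ± 0.09 and -0.18 ± 0.16. Of 6 genes for ligands and receptors that stimulate or inhibit T cells beside class II, 4 rose, with Cd274, which encodes the inhibitory ligand PD-L1, by 3.21 ± 0.28 and Cd86, a costimulatory ligand, by 1.72 ± 0.20 (edgeR adjusted p = 4.68e-07 and 7.53e-06). Of 5 T cell genes all 5 rose. Cd4 and Lag3 encode proteins that bind class II, while Cd3e, Cd3d and Trac encode parts of the T cell receptor complex and are not particular to T cells that read class II. Cd4 rose by 1.86 ± 0.34 and Trac by 2.29 ± 0.43 (edgeR adjusted p = 0.000314 and 0.000411). None of the 3 turnover genes was called (2 with an unadjusted p under 0.05, beside 58.5% of all genes), among them Marchf1, a ubiquitin ligase for class II, at 1.65 ± 0.43 (edgeR adjusted p = 0.00460). H2-Eb2 was not called, at 0.34 ± 0.64 (edgeR adjusted p = 0.672), and H2-Ea had 0 or 1 count in every library.

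The class I side gives a point of reference. All 9 class I counterparts rose in Winnie-Prolapse against C57BL/6, with a median log2 fold change of 2.26. The smallest was Tapbp (0.70 ± 0.11) and the largest Nlrc5 (4.61 ± 0.27), the class I counterpart of Ciita. In Winnie against C57BL/6, Nlrc5 was the 1 called of the 9 (3.88 ± 0.50, edgeR adjusted p = 0.000937), and the list median was 1.64 beside 2.46 for the class II genes.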

How the data were processed

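Distal colon RNA of 22 mice was compared between groups read from the labels, with sex and age. Replicate numbers follow the sample order. The authors selected poly(A) RNA, made stranded MGIEasy libraries, sequenced them in paired ends and ran the RNAsik pipeline on GRCm38. The deposited values are raw read counts per gene made with featureCounts (the submitters' processing notes also name STAR and limma). The annotation release, strand setting and handling of shared reads are not given in the sources used here. Overlapping genes and near copies are therefore uncertain, among the members Ciita (with Dexi), H2-Oa, H2-Eb1, H2-DMa and Cd74 by overlap.

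Counts were fitted pair by pair with the edgeR 4.0.16 quasi-likelihood F test in R 4.3.3 (TMM, filterByExpr), over all genes, with Benjamini-Hochberg adjustment. The limits were an adjusted p under 0.001 and 1.5-fold, as in the study. CPM used library totals, log2 CPM a prior count of 2, and ratios 0.5 added to each count. Alternatives were DESeq2 1.42.0, limma-voom (limma 3.58.1), no TMM, no filter, sex as covariate, each sex, other fits and each library left out. Positions and exon lengths came from GENCODE M21 on GRCm38. Fits were tested on simulated data. No 2 libraries agreed within sampling noise (lowest chi-square per degree of freedom 28.83). Symbols were found for 115 of 115 list genes, 3 by another symbol or identifier. A further 2 genes of these lists are not reported here and were left out of the list counts and sums. All 10 members are named. Members and lists were chosen with earlier results of these data known. Other list genes were named by mean level or because a result turned on them, and like genes by the 5 highest r for Cd74 and Ciita.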

Additional observations from a re-analysis of the deposited data

Results flagged for a closer look

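In C57BL/6, replicate 5 stood apart from the other 7 controls for 5 members by Dixon's gap test. Its values were 22.2 CPM for Ciita, 110.2 CPM for H2-Eb1, 13.0 CPM for H2-DMb1, 9.14 CPM for H2-Oa and 35.5 CPM for H2-Ob, each the highest of the 8. Of 48 groups of values examined these 5 stood apart, and chance alone flags about 1 group in 20. All 5 come from 1 library and the genes vary together, so they are not separate events and this rate cannot judge them. The same library had the highest B cell marker sum, 239 CPM. Without it, 0 members were called in Winnie against C57BL/6, where 0.0349% of all genes were called higher, and 7 in Winnie-Prolapse against C57BL/6, where 9.31% were.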

How the results depend on the processing

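No paired analysis was possible because the replicate numbers were given in sample order and pair no animals between groups. In Winnie against C57BL/6 the 0 members called became 7 at an adjusted p under 0.05, 7 with DESeq2, 1 without the filter on low counts, 6 with all 3 groups in one fit and 7 in males alone, and leaving out each library gave 0 to 6 (1 without Winnie replicate 4 and 6 without replicate 5). The cause was not tested. In Winnie-Prolapse against C57BL/6 the 7 called became 1 in females alone, a fit with 7 libraries, and stayed 7 in the other alternatives. In Winnie-Prolapse against Winnie it was 0 in all. Signs turned for H2-DMb2, H2-Oa and H2-Ob, whose values lay near 0, and in Winnie-Prolapse against Winnie also for the other 7, whose values were 0.45 to 0.63, in males alone. None of the turned values was called. In Winnie against C57BL/6, H2-DMb2 was -0.0095 without TMM and -0.27 in females, H2-Oa -0.28 in females, and H2-Ob 0.43 with limma-voom, 0.045 with sex as a covariate and 0.50 in males. In Winnie-Prolapse against C57BL/6, H2-DMb2 was -0.0089 without TMM and -0.27 in females, H2-Oa -0.12 in females, and H2-Ob -0.079 without TMM and -0.37 in females. In Winnie-Prolapse against Winnie, males alone gave -0.36 for Ciita, -0.15 for Cd74, -0.18 for H2-Aa, -0.15 for H2-Ab1, -0.22 for H2-Eb1, -0.24 for H2-DMa, -0.065 for H2-DMb1 and 0.14 for H2-DMb2. There H2-DMb2 was 0.060 with sex as a covariate and 0.00052 with all 3 groups in one fit, H2-Oa -0.066 and H2-Ob -0.15 with limma-voom, and H2-Ob -0.028 in females. Leaving out each library gave -0.073 to 0.58 for H2-DMb2, -0.074 to 0.57 for H2-Oa and -0.20 to 0.51 for H2-Ob in Winnie against C57BL/6. It gave -0.21 to 0.58, -0.15 to 0.66 and -0.36 to 0.56 in Winnie-Prolapse against C57BL/6, and -0.26 to 0.13, -0.22 to 0.24 and -0.30 to 0.20 in Winnie-Prolapse against Winnie, in the same order. The ratios kept direction and side of the limit, except H2-Eb1 to H2-Ab1 in Winnie-Prolapse against Winnie, where leaving out each library gave -0.18 to -0.088 and Winnie replicate 3 decided it. Depth limits H2-Oa most, which had 7 counts in C57BL/6 replicate 7.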
